A study of Mus musculus with 8 samples.

Results

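Top1mt, Zc3h3, Gsdmd, Naprt, Eef1d, Jrk, Them6, Ptp4a3, Slc45a4 and Dennd3 are 10 genes of mouse chromosome 15 that flank Gpihbp1 without belonging to its Ly6 gene family. They were taken from the count table by gene symbol, and all 10 were among its 17190 genes. RNA sequencing compared hearts of 4 wild-type mice with hearts of 4 homozygous Gpihbp1 knockout mice (Gpihbp1-/-), all of them males fed a standard chow. The titles number the wild-type hearts 2, 4, 5 and 6, and the knockout hearts 1, 2, 3 and 4. The labels state the aim as the effect of Gpihbp1 deficiency on the heart, and give no strain, age, litter or collection day, nor how the knockout allele was made. Nothing there says whether littermates or separate litters were used, so each test measures only the spread between these 8 samples, part of which may be technical.

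Gpihbp1 is an endothelial protein that carries lipoprotein lipase to the capillary lumen, and its gene lies at the edge of a cluster of small Ly6-type genes. The 10 genes described here lie outside the Ly6 family and are of several kinds. They encode, among others, a mitochondrial topoisomerase, a translation factor, the pore protein of pyroptosis and an enzyme of NAD synthesis. Genes that lie near each other can share regulatory DNA, which is why the neighbours of a deleted gene are commonly examined in a knockout. Counting listed genes along chromosome 15 in assembly GRCm38.p6, 5 of the 10 lie before Gpihbp1: Dennd3 at 30 places, Slc45a4 at 29, Ptp4a3 at 27, Jrk at 21 and Them6 at 19. The other 5 lie after it: Top1mt at 2 places, Zc3h3 at 5, Gsdmd at 6, Naprt at 8 and Eef1d at 9. Jrk lies directly between Arc and Psca, the neighbours at 22 and 20 places.

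Total counts per library ran from 9065561 to 13492971. The deleted gene matched the labels, with 833 to 1951 Gpihbp1 reads in the wild-type libraries and at most 1 in a knockout library. Markers of cardiac muscle, such as Myh6 and Tnnt2, were read in every library, and the 8 of them summed to between 41500 and 119000 CPM in wild-type hearts and 40300 to 98800 CPM in knockout hearts (CPM is the count relative to the library's total, scaled between libraries by the TMM method). The hearts wild-type 2 and knockout 2 stood apart on the first principal component, at 71.8 and 66.7 against -34.7 to -13.9 in the other libraries, with high markers of activated fibroblasts (3160 and 2980 CPM against 93.7 to 128) and of macrophages. Wild-type 6 stood apart on the second, at 69.6 against 5.3 or less, with high erythroid markers (12300 CPM against 293 to 1520). Atrial markers were high in all 3 of these hearts, at 3130 to 5020 CPM against 159 to 301. It also had the lowest TMM factor, 0.678 against 0.964 to 1.16, so its scaled CPM values lie well above its CPM values over total counts. Where a fold change of the 10 genes rests on 1 of these 3 libraries, its value without that library is given too.

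None of the 10 genes passed the test between the genotypes. In edgeR's quasi-likelihood test over 12826 genes, 0 of the 10 had an adjusted p under 0.05, against 0.0312% of all tested genes (4 genes, with Arc and Psca among them), and each of the 10 had an adjusted p of 0.99998. At an unadjusted p under 0.05 there was 1 of 10, Top1mt, against 0.904% of all tested genes. The median log2 fold change (knockout over wild type) of the 10 was -0.31, with 7 negative and 3 positive, beside -0.02 over all tested genes, of which 52.9% were negative. Without wild-type 6 the median of the 10 was -0.09, with 8 negative and 2 positive, and in limma on log2(TPM + 1) it was 0.06, with 4 negative and 6 positive, where the median of all genes was 0.26. The 95% interval spanned 0 for 9 of the 10. These intervals also bound what could have been missed: the lowest bound was -1.70, for Top1mt, and the highest 1.08, for Zc3h3, so no interval of the 10 reached the changes of Arc (3.85, interval 3.27 to 4.43) or Psca (5.45, interval 4.28 to 6.62). Psca had 1 to 3 reads in each wild-type library and 50 to 151 in each knockout library, and its call was lost without wild-type 4, without wild-type 5 and without the 3 hearts that stood apart.

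**Figure D1:**
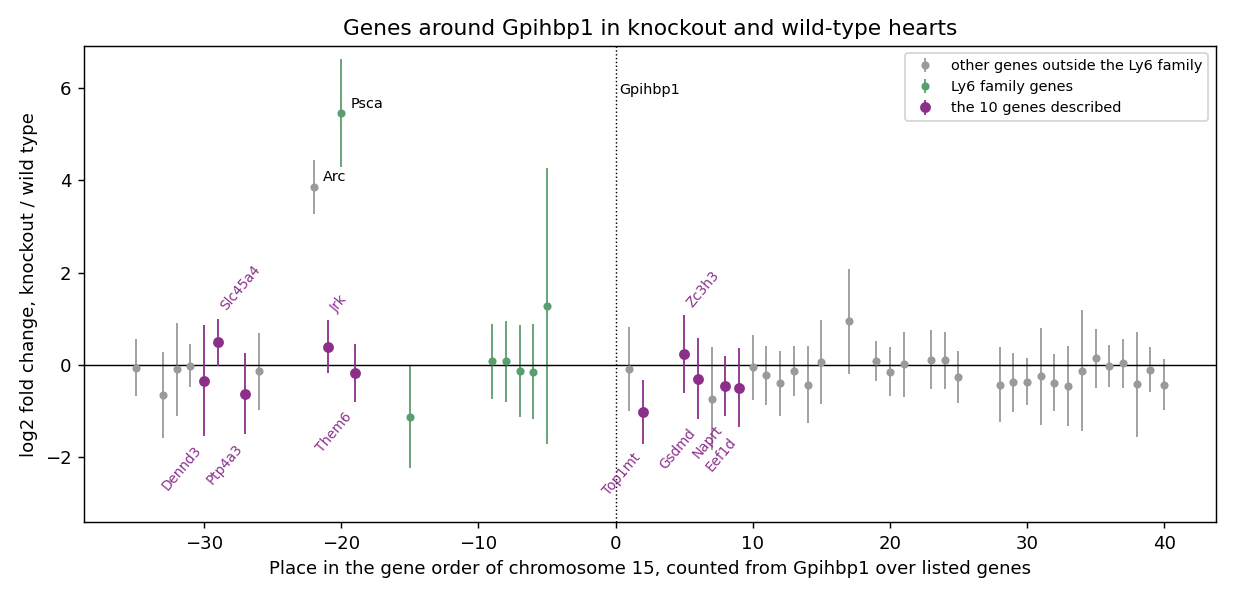
Log2 fold change (knockout over wild type, vertical axis) of each tested gene by its place in the gene order of chromosome 15, counted from Gpihbp1 over listed genes (horizontal axis); bars are 95% intervals of the edgeR fit, and Gpihbp1 itself is left out. Arc at 3.85 and Psca at 5.45 stand above all other genes shown, Jrk between them is at 0.40, and of the 10 genes in purple Top1mt, 2 places after Gpihbp1, is the lowest at -1.01.

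Top1mt (gene 72960) had the lowest ratio of knockout to wild type among the 10. It encodes the topoisomerase that relaxes supercoils of mitochondrial DNA, and after Zfp41 it is the nearest listed gene on the far side of Gpihbp1 from the Ly6 cluster. It was read 81, 50, 85 and 61 times in wild-type hearts 2, 4, 5 and 6, then 36, 63, 32 and 27 times in knockout hearts 1, 2, 3 and 4. On the TMM scale this was 5.64, 4.75, 7.42 and 8.57 CPM against 3.18, 4.13, 3.13 and 2.54 CPM. Every knockout heart lay below every wild-type heart, and the highest knockout value, in knockout 2, was close to the lowest wild-type value, in wild-type 4. The group means were 6.60 ± 1.72 and 3.25 ± 0.658 CPM (SD, n = 4 each), a fold of 0.495 with a 95% interval from 0.307 to 0.799, or -1.01 on the log2 scale (standard error 0.31). The unadjusted p of edgeR's quasi-likelihood test was 0.00862, the adjusted p 0.99998.

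Top1mt was also the only one of the 10 whose groups did not overlap downward on the TMM scale. That order held for 0.366% of all tested genes, and the upward order, met by 0 of the 10, for 0.265%. Over total counts Top1mt had 6.0, 5.52, 7.41 and 5.8 CPM in wild-type hearts against 3.48, 4.69, 3.02 and 2.52 CPM in knockout hearts, again without overlap, as did 0.14% of tested genes. In the deposited TPM (a relative level corrected for gene length) the groups overlapped, since wild-type 6 had 2.74 and knockout 2 had 3.69; 0.0936% of tested genes were separated downward on that scale. The TPM fits also lowered the size of the difference to -0.51 and -0.65 (pseudocounts 1 and 0.1, limma unadjusted p = 0.130 and 0.142). In those fits the median of all genes was itself 0.26 and 0.32, against -0.02 in the TMM fit, and relative to that median Top1mt stood at -0.77 and -0.97.

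Reads of Top1mt can be set against those of Top1, the nuclear topoisomerase of the same family, within each library, which needs no scaling; this and the comparison of Jrk with a relative below were chosen after the values were seen. There were 13.2, 17.4, 14.2 and 41.8 Top1mt reads per 100 Top1 reads in wild-type hearts 2, 4, 5 and 6, then 9.92, 10.1, 7.13 and 5.35 in knockout hearts 1, 2, 3 and 4. The groups did not overlap in this ratio either, and wild-type 6 lay far above the rest, where Top1 had its lowest count, 146 reads against 287 to 621. Set against Top1 in the same way, 0.164% of all other tested genes were lower in every knockout heart than in any wild-type heart. Top1 itself had a log2 fold change of 0.20 with an interval from -0.48 to 0.88. Leaving out each library in turn kept Top1mt between -1.15 and -0.88, with edgeR unadjusted p-values from 0.00632 to 0.0316. With the 3 hearts that stood apart all left out it had -1.04 (unadjusted p = 0.0120).

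Among other genes of mitochondrial DNA upkeep no gene separated the groups. Of 30 tested genes for replication, repair, transcription and nucleotide supply of mitochondrial DNA, 0 passed the adjusted threshold and 0 had an unadjusted p under 0.05. There were 15 with negative and 15 with positive log2 fold changes, the median was -0.02. Polg, the catalytic subunit of the mitochondrial DNA polymerase, had 83.3 ± 20.5 CPM in wild-type hearts against 72.3 ± 13.4 CPM in knockout hearts. Endog, a mitochondrial nuclease, had the lowest log2 fold change of the list, -0.82, with an interval from -1.98 to 0.34. It had 261 CPM in wild-type 6 against 55.6 to 80.8 CPM in the other wild-type hearts, and without that heart its log2 fold change was -0.02.

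**Figure D2:**
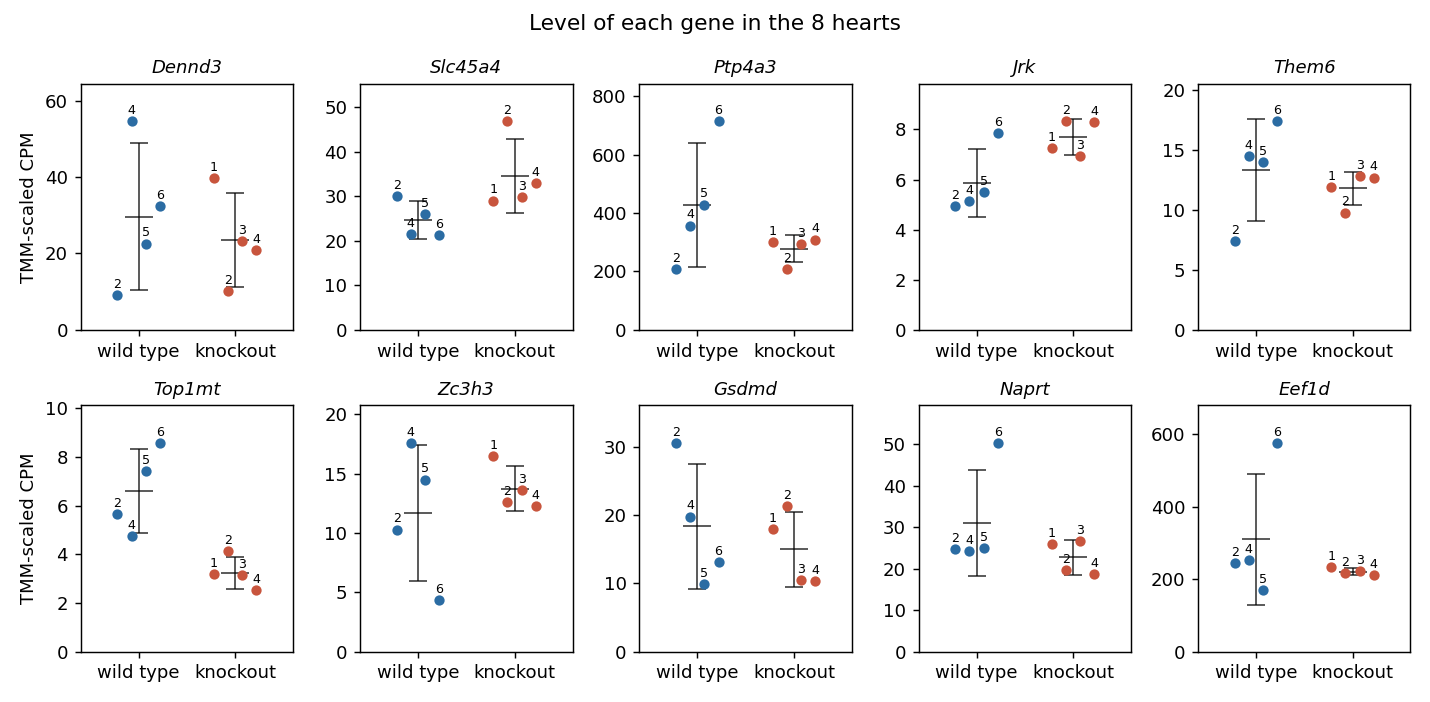
Level of each of the 10 genes (vertical axis, TMM-scaled CPM from 0) in the 4 wild-type (blue) and 4 knockout (red) hearts, labelled by heart number; black bars are the mean and SD. The upper row holds the genes before Gpihbp1 and the lower row those after it. Top1mt is the one panel without overlap, and wild-type 6 is the highest heart of Top1mt, Ptp4a3, Them6, Naprt and Eef1d and the lowest of Zc3h3 and Slc45a4.

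Jrk and Zc3h3 encode proteins that act on nucleic acids. Jrk (gene 16469), a nuclear protein related to the centromere protein CENP-B, is next to Arc, which rose from 3.07 ± 0.714 to 44.1 ± 8.55 CPM (SD, n = 4 each; edgeR adjusted p = 0.000598). Jrk had 71, 54, 63 and 56 reads in wild-type hearts 2, 4, 5 and 6, then 82, 127, 71 and 88 reads in knockout hearts 1, 2, 3 and 4. On the TMM scale it had 4.95, 5.13, 5.50 and 7.87 CPM in wild-type hearts against 7.25, 8.33, 6.95 and 8.29 CPM in knockout hearts. Wild-type 6 alone reached into the range of the knockout hearts. The fold change of Jrk was 0.40 on the log2 scale, standard error 0.26 (unadjusted p = 0.154 and adjusted p = 0.99998 in edgeR), and the interval of the fold ran from 0.884 to 1.97.

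The position of Jrk depended on how wild-type 6 was scaled. Over total counts Jrk had 5.26, 5.96, 5.49 and 5.33 CPM in wild-type hearts against 7.93, 9.45, 6.69 and 8.22 CPM in knockout hearts, so that all knockout hearts were higher, as for 0.53% of tested genes. In the deposited TPM the wild-type hearts had 1.09, 1.28, 1.51 and 0.80 and the knockout hearts 1.80, 2.33, 1.57 and 2.06, again all higher, as for 0.515% of tested genes. Without wild-type 6 the log2 fold change was 0.55 (edgeR unadjusted p = 0.0407), and relative to the median of all genes in the TPM fits it was 0.18 and 0.38. Per 100 reads of Cenpb, the gene of CENP-B, there were 2.15, 2.68, 2.15 and 2.50 Jrk reads in wild-type hearts 2, 4, 5 and 6, then 3.02, 3.32, 2.54 and 3.39 in knockout hearts 1, 2, 3 and 4. In that ratio knockout 3 fell below wild-type 4, so the groups overlapped. No fit put Jrk past the adjusted threshold, and 0 of 7 tested genes of its family and of the beta-catenin partners listed with it had an unadjusted p under 0.05; Cenpb was at 0.02 and Ctnnb1, which encodes beta-catenin, at 0.14 on the log2 scale.

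**Figure D3:**
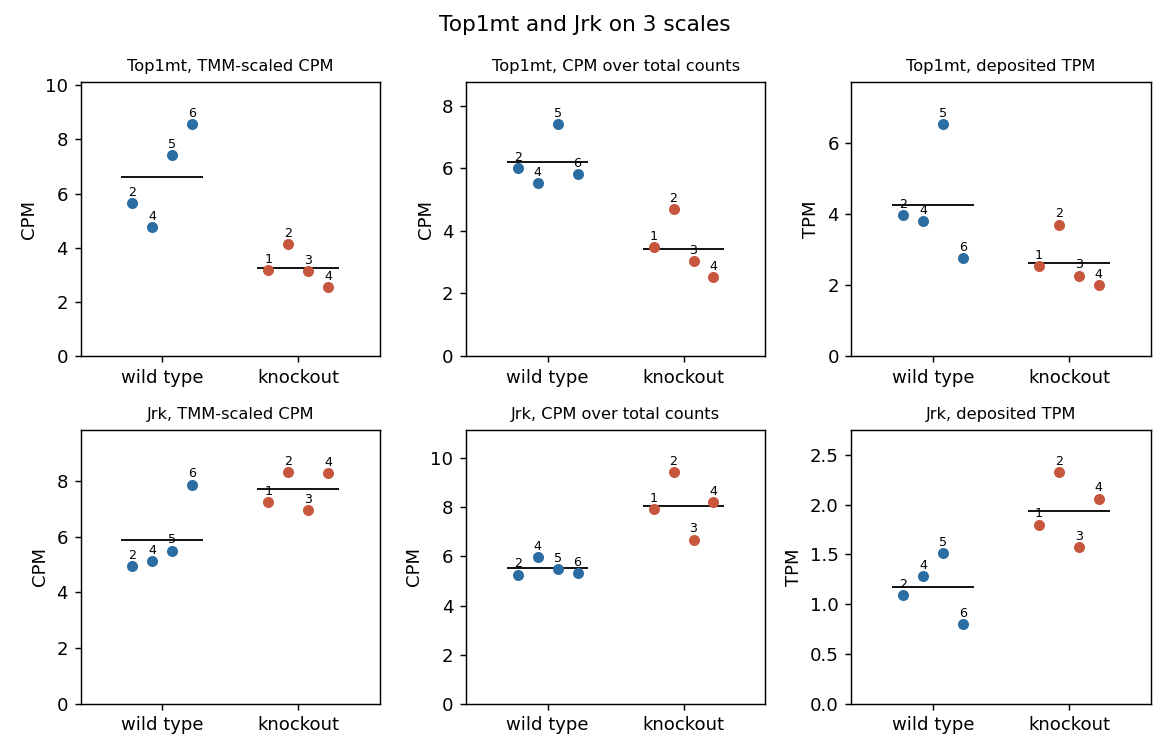
Top1mt (upper row) and Jrk (lower row) in the 4 wild-type (blue) and 4 knockout (red) hearts on 3 scales: TMM-scaled CPM, CPM over total counts and deposited TPM (vertical axes from 0; lines are group means; labels are heart numbers). Top1mt separates the groups on both CPM scales and overlaps in TPM, while Jrk overlaps on the TMM scale through wild-type 6 and separates on the other scales.

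Zc3h3 (gene 223642), a zinc finger protein of mRNA polyadenylation and nuclear export, had 10.3, 17.6, 14.5 and 4.36 CPM in wild-type hearts 2, 4, 5 and 6, then 16.5, 12.6, 13.6 and 12.3 CPM in knockout hearts 1, 2, 3 and 4. The wild-type hearts enclosed the knockout hearts, with wild-type 6 lowest on 31 reads. Its log2 fold change of 0.23, with an interval from -0.61 to 1.08, became -0.057 without wild-type 6. Of 20 tested genes of polyadenylation and mRNA export and of the Smad proteins, 0 had an unadjusted p under 0.05, and the median was 0.09, and -0.03 without wild-type 6; the poly(A) polymerase gene Papola was at 0.09 and the export receptor gene Nxf1 at -0.21.

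Eef1d (gene 66656) was the most abundant of the 10 per length. It encodes the delta subunit of the complex that reloads the elongation factor eEF1A with GTP. Its TPM averaged 348 ± 51.7 in wild-type hearts against 337 ± 30.1 in knockout hearts (SD, n = 4 each). On the TMM scale it had 245, 252, 170 and 576 CPM in wild-type hearts 2, 4, 5 and 6, then 233, 216, 223 and 211 CPM in knockout hearts 1, 2, 3 and 4. The knockout hearts lay close together, with an SD of 9.60 CPM, while the wild-type SD of 181 CPM came largely from wild-type 6. The log2 fold change of -0.49 (interval from -1.35 to 0.36) was -0.03 without that heart and -0.04 in the TPM fits. Relative to the median of all genes in the TPM fits it was -0.30 and -0.36. Among 14 tested elongation genes 0 had an unadjusted p under 0.05 and the median was 0.01; Eef1a1 and Eef2, the factors that bring in tRNA and move the ribosome, were at -0.33 and -0.06. Eef1d overlaps Tigd5 on the opposite strand in the reference annotation. The libraries were strand-specific, but the sources used here do not say whether counting used the strand; Tigd5 had a log2 fold change of -0.05.

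Naprt, Slc45a4 and Them6 belong to metabolism and transport. Naprt (gene 223646) makes a precursor of NAD from nicotinic acid. It had 24.7, 24.2, 25.0 and 50.3 CPM in wild-type hearts 2, 4, 5 and 6, then 25.9, 19.6, 26.6 and 18.7 CPM in knockout hearts 1, 2, 3 and 4. Apart from wild-type 6 the wild-type hearts differed by less than 1 CPM and lay inside the knockout range. In the deposited TPM Naprt in wild-type 6 was at 21.1, inside the other wild-type values of 20.5 to 24.3. Its log2 fold change was -0.45 with an interval from -1.10 to 0.20, and -0.13 without wild-type 6. In the TPM fits it was -0.17 and -0.18, or -0.43 and -0.49 relative to the median of all genes. Of 19 tested genes of NAD synthesis and use 0 had an unadjusted p under 0.05, with a median of 0.04, and Nampt, which starts the parallel route from nicotinamide, was at 0.16 (interval from -0.61 to 0.92).

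Slc45a4 (gene 106068), a proton-coupled solute carrier of the SLC45 family, had the highest log2 fold change of the 10, 0.49, standard error 0.23 (unadjusted p = 0.0592 and adjusted p = 0.99998 in edgeR). It had 30, 21.4, 26 and 21.2 CPM in wild-type hearts 2, 4, 5 and 6, then 29.0, 46.8, 29.7 and 32.9 CPM in knockout hearts 1, 2, 3 and 4. Only wild-type 2 reached the knockout range, and knockout 2 stood above all other hearts. Without knockout 2 the log2 fold change was 0.31 (unadjusted p = 0.199, edgeR), and without wild-type 2 it was 0.59 (unadjusted p = 0.0393). Among 16 tested genes of the SLC45 family and of polyamine turnover, 12 were positive and 4 negative, and 0 had an unadjusted p under 0.05. The median of that list was 0.10 (0.24 without wild-type 2, 0.04 without wild-type 6). Without knockout 2 it was -0.16, with 10 negative and 6 positive.

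Them6 (gene 223626), named for the thioesterase superfamily, had 7.38, 14.5, 14 and 17.4 CPM in wild-type hearts 2, 4, 5 and 6, then 11.9, 9.78, 12.8 and 12.7 CPM in knockout hearts 1, 2, 3 and 4. Wild-type 2 and knockout 2 were the lowest heart of each group. On the log2 scale the fold change was -0.17 (interval from -0.81 to 0.46), -0.38 without wild-type 2 and -0.04 without wild-type 6. Of 9 tested thioesterase genes 1 had an unadjusted p under 0.05: Acot1, a cytosolic acyl-CoA thioesterase induced by fatty acids through PPAR alpha, had 19.6 ± 13.5 CPM in wild-type hearts against 4.84 ± 1.38 CPM in knockout hearts (log2 fold change -2.02, standard error 0.63, edgeR unadjusted p = 0.00975 and adjusted p = 0.99998). Its groups overlapped through wild-type 2, at 2.79 CPM. Without that heart the log2 fold change was -2.38 (edgeR unadjusted p = 7.04e-05), which also did not pass after adjustment. Other settings gave smaller values for Acot1. It was at -1.63 without wild-type 5 (edgeR unadjusted p = 0.0341). In limma on log2(TPM + 1) it was at -1.16 (unadjusted p = 0.0773), where the median of all genes was 0.26. The median of the thioesterase list was -0.23, and 0.05 without wild-type 6.

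Ptp4a3 (gene 19245) encodes a prenylated phosphatase that binds CNNM magnesium transport proteins. It had 208, 357, 429 and 714 CPM in wild-type hearts 2, 4, 5 and 6, then 301, 209, 293 and 309 CPM in knockout hearts 1, 2, 3 and 4. Of the 4 wild-type hearts 3 lay above all knockout hearts, and wild-type 2 lay level with knockout 2 at the bottom. The log2 fold change was -0.62 with an interval from -1.49 to 0.25; it was -0.85 without wild-type 2 (edgeR unadjusted p = 0.0385) and -0.28 without wild-type 6 (edgeR unadjusted p = 0.411). Its paralogs Ptp4a1 and Ptp4a2 were at -0.04 and -0.19, and of 11 tested genes of the PTP4A and CNNM families and of magnesium transport 0 had an unadjusted p under 0.05 (median -0.04).

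Dennd3 (gene 105841), an exchange factor that activates the small GTPase Rab12 in membrane traffic, varied widely between hearts. On the TMM scale its ratio from highest to lowest heart, 5.98, was the largest of the 10 and that of Jrk, 1.69, the smallest, but in TPM Zc3h3 had the largest ratio, 7.94, and Eef1d the smallest, 1.42. It had 9.12, 54.6, 22.6 and 32.3 CPM in wild-type hearts 2, 4, 5 and 6, then 39.8, 10.1, 23.2 and 20.9 CPM in knockout hearts 1, 2, 3 and 4. The hearts numbered 2 were the lowest in both groups, and the spread within each group exceeded the difference between them. The log2 fold change of -0.33 (interval from -1.54 to 0.87) turned to 0.16 without wild-type 4 and was -0.08 without knockout 2. In the other direction, it was -0.64 without wild-type 2 and -0.71 without knockout 1. Of 19 tested genes of the DENN family and of Rab12 autophagy 0 had an unadjusted p under 0.05, with a median of -0.01; Rab12 itself was at 0.32 (interval from -0.44 to 1.09).

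Gsdmd (gene 69146) encodes gasdermin D, which inflammatory caspases cut to form the pores of pyroptosis. It had 30.6, 19.8, 9.95 and 13.1 CPM in wild-type hearts 2, 4, 5 and 6, then 18, 21.3, 10.5 and 10.3 CPM in knockout hearts 1, 2, 3 and 4. The hearts numbered 2 were the highest of each group, and the knockout hearts all lay inside the wild-type range, which wild-type 2 extended upward. The log2 fold change was -0.29 (interval from -1.17 to 0.59) and 0.07 without wild-type 2. Of 17 tested genes of pyroptosis and the inflammasome 0 had an unadjusted p under 0.05, with 7 negative, 10 positive and a median of 0.12. That median moved to 0.35 with wild-type 2 left out. With wild-type 6 left out, where 20 genes of the list passed the filter, it was -0.09. Without knockout 2 it was -0.45, with 12 negative and 5 positive. With all libraries Ninj1, which ruptures the membrane of dying cells, was at -0.27 and Nek7, a partner of the inflammasome sensor NLRP3, at 0.22.

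The differences between hearts in Dennd3, Gsdmd and Ptp4a3 ran in part alongside differences in cell type markers. These pairings were picked after the values were seen. In these bulk samples fewer cells of a type and less RNA per cell cannot be told apart. The 8 endothelial markers, all read in every library, summed to 775, 2940, 1500 and 1460 CPM in wild-type hearts 2, 4, 5 and 6, then to 2490, 916, 1530 and 1540 CPM in knockout hearts 1, 2, 3 and 4. Wild-type 4 and knockout 1 were the highest and wild-type 2 and knockout 2 the lowest of all hearts both in this sum and in Dennd3. The 8 macrophage markers, also read in every library, summed to 4020 CPM in wild-type 2 and 2630 CPM in knockout 2. The other 6 hearts had 400 to 710 CPM. The hearts numbered 2 were likewise the highest of each group in Gsdmd. However, knockout 1, with 530 CPM of macrophage markers, had 18 CPM of Gsdmd against 21.3 CPM in knockout 2. Likewise wild-type 4, with 539 CPM of these markers, had 19.8 CPM of Gsdmd. Wild-type 6, with 710 CPM of the markers, had 13.1 CPM.

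Ptp4a3 and the cardiac muscle markers shared some of their extremes. The 8 muscle markers summed to 41500 CPM in wild-type 2, 40300 CPM in knockout 2 and 119000 CPM in wild-type 6, the lowest, the lowest and the highest of their groups, as in Ptp4a3. In the wild type the order of all 4 hearts was the same in both on the TMM scale. Both values of wild-type 6 carry its low TMM factor of 0.678. In the deposited TPM its Ptp4a3 was 261, below 310 in wild-type 4 and 387 in wild-type 5. The muscle sum was not taken on that scale. Among the knockout hearts the orders differed: the muscle sum was highest in knockout 3, but Ptp4a3 was highest in knockout 4, at 309 CPM against 293 CPM in knockout 3. They also differed across genotypes. Wild-type 4, with a muscle sum of 62100 CPM, had more Ptp4a3 than any knockout heart. The muscle sums of knockout hearts 1, 3 and 4 were 70500, 98800 and 91500 CPM. The part of any cell type in these values was not tested.

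**Figure D4:**
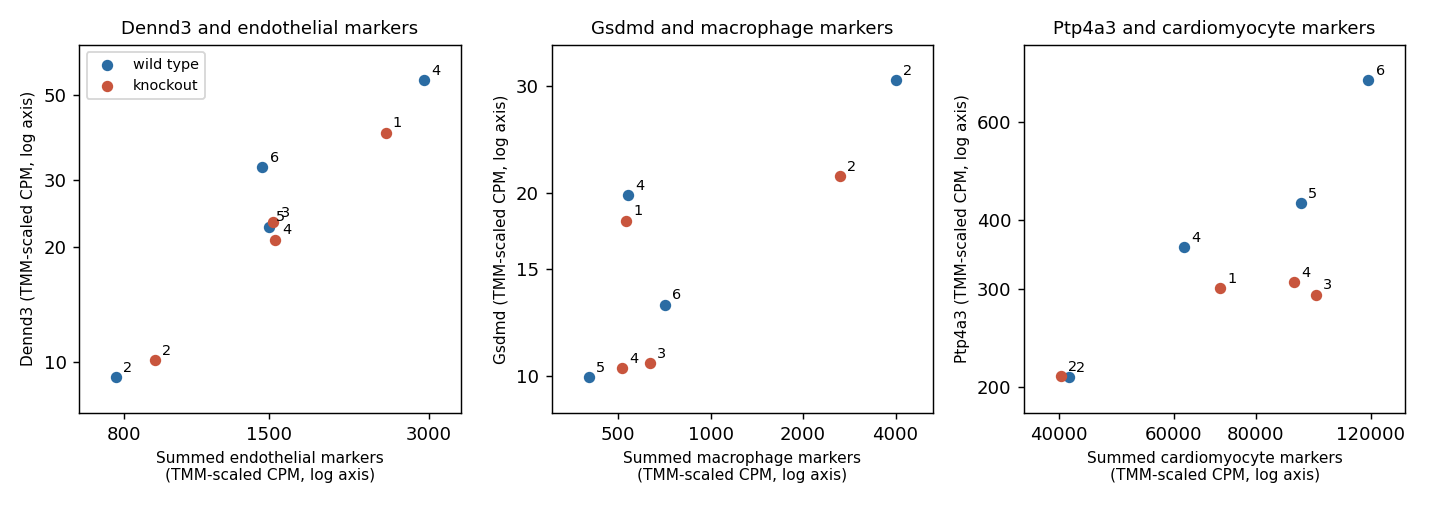
Dennd3 beside summed endothelial markers, Gsdmd beside summed macrophage markers and Ptp4a3 beside summed cardiac muscle markers in the 8 hearts (all axes TMM-scaled CPM on log axes; wild type in blue, knockout in red; labels are heart numbers). Dennd3 is lowest in both hearts numbered 2, at 9.12 and 10.1 CPM, and highest in wild-type 4 and knockout 1, the hearts with endothelial sums of 2940 and 2490 CPM.

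Per gene length the 10 genes fell into a wide range of levels, described here by the deposited TPM. The median over the 8 hearts was 347 TPM for Eef1d and 252 TPM for Ptp4a3, then 21.3 TPM for Naprt and 12.4 TPM for both Gsdmd and Them6. Lower levels followed for Zc3h3 at 6.79, Dennd3 at 6.26, Slc45a4 at 5.38, Top1mt at 3.21 and Jrk at 1.54 TPM. Eef1d exceeded Ptp4a3 in 7 of 8 hearts, Ptp4a3 exceeded Naprt in 8 of 8, Naprt exceeded Gsdmd in 6 of 8 and Them6 exceeded Zc3h3 in 8 of 8. Gsdmd and Them6 could not be ordered, each being the higher in 4 hearts, nor could Zc3h3 and Dennd3, with Zc3h3 higher in 4 of 8, or Dennd3 and Slc45a4, with Dennd3 higher in 5 of 8. Slc45a4 exceeded Top1mt in 6 of 8 and Top1mt exceeded Jrk in 7 of 8 hearts.

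Genes between and around the 10 were taken from a list of neighbours outside the Ly6 family. Of 32 tested genes of that list, Arc was the 1 that passed, and it was also the 1 with an unadjusted p under 0.05; the list's median was -0.11, with 23 negative and 9 positive, and without wild-type 6 it was -0.03, with 19 negative and 13 positive. Apart from Arc and the 10 genes described, the plotted values outside the Ly6 family ran from Mroh6 at -0.73 to Fam83h at 0.94. Both had intervals that spanned 0, and both are named here for their values. Zfp41, a zinc finger gene next after Gpihbp1 and next before Top1mt, had 156 wild-type and 158 knockout reads and a log2 fold change of -0.09 (interval from -0.99 to 0.81). On the other side the 2 listed genes nearest to Gpihbp1, Ly6h and Gm34531, had at most 1 read in any library and were not tested. Of the 5 genes described that lie after Gpihbp1, 4 had negative log2 fold changes, and of the 5 before it 3 did.

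**Figure D5:**
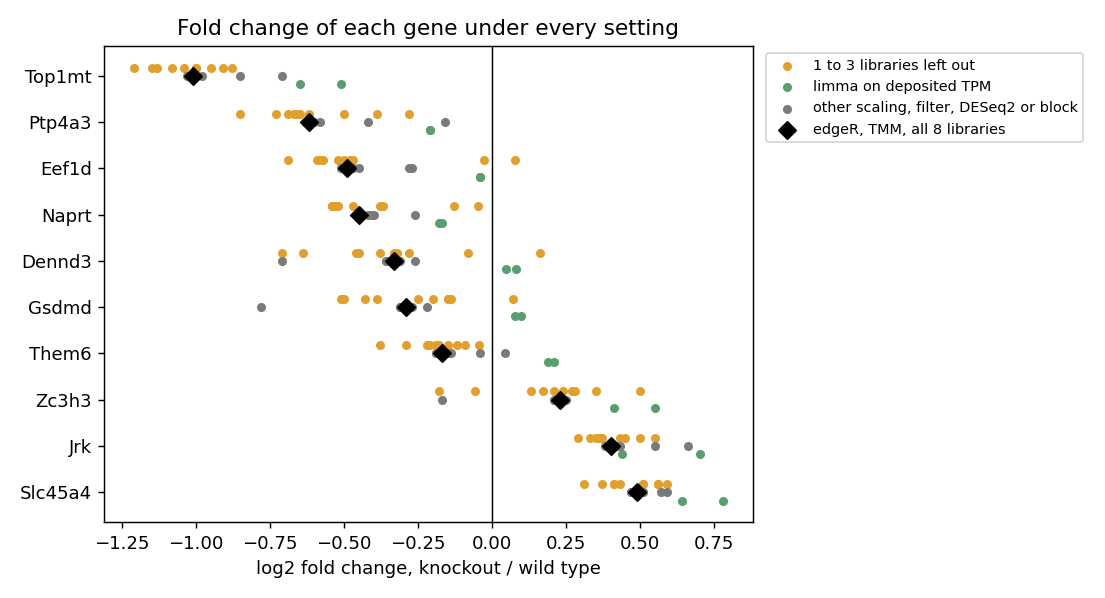
Log2 fold change (knockout over wild type, horizontal axis) of each of the 10 genes in the fit of all 8 libraries (black) and under each alternative (dots coloured by kind). Top1mt, Ptp4a3, Naprt, Jrk and Slc45a4 keep their sign throughout, with Top1mt between -1.21 and -0.51, and the other 5 cross 0 under at least 1 alternative.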

How the data were processed

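Polyadenylated RNA of dissected hearts was made into strand-specific libraries, per the labels' protocols, 1 paragraph of which names rat tissue although every sample is labelled mouse. HISAT, Bowtie2 and build GRCm39 are named, without roles or versions, per the submitters' processing notes; the sources used here name no counting program. The authors deposited 1 table of estimated counts, TPM and FPKM per library. FPKM and 8 empty per-sample columns were not used.

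Estimated counts were rounded (4.32% to 5.89% of values were not whole), filtered by filterByExpr (minimum count 10, minimum total 15) and fitted with edgeR 4.0.16 in R 4.3.3: TMM scaling, robust quasi-likelihood F-test across all 12826 genes, no covariates, Benjamini-Hochberg adjustment, threshold 0.05. The biological coefficient of variation was 43.7%. Standard errors are the log2 fold change over the root of F, and 95% intervals use the fit's degrees of freedom. The deposited TPM served for levels and for limma 3.58.1 on log2 values; DESeq2 1.42.0 was an alternative. The fit was tested on simulated data. No 2 libraries agreed within sampling noise (chi-square per degree of freedom at least 7.29).

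Gene order came from assembly GRCm38.p6, another build, so no coordinates are given; 17072 of 17190 gene identifiers matched. Groups and numbers came from the sample titles. The genes described, the gene lists and the marker lists were chosen with earlier results of these data known. Named list genes were those with an unadjusted p under 0.05, at most 4, or else the 2 most abundant, and the 2 listed genes nearest to Gpihbp1 on each side. Psca, Top1, Tigd5, Mroh6, Fam83h and the pairs of a gene with its relative or with a marker list were picked with their values known.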

Additional observations from a re-analysis of the deposited data

Results flagged for a closer look

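In 2 of 20 groups of 4 hearts, 1 heart lay apart from the others by more of the group's range than Dixon's 95% critical value allows, which chance gives in about 1 in 20 such groups. Naprt in wild-type 6 was at 50.3 CPM on the TMM scale against 24.2 to 25.0 in the other wild-type hearts. Over total counts it was at 34.0 CPM there against 24.9 to 28.1. In the deposited TPM it was at 21.1, inside the other wild-type values of 20.5 to 24.3. Ptp4a3 in knockout 2 was at 209 CPM against 293 to 309 in the other knockout hearts.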

How the results depend on the processing

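None of the 10 genes passed the adjusted threshold under any of 20 alternatives, 1 of which, a filter at a mean of 3 CPM, was added after seeing the data because the planned filter at 1 CPM kept more genes than the main one. The count over all genes was 8 with DESeq2, 16 with the heart number as a replicate block, and between 2 and 3 with 1 library left out. Some directions reversed. With pseudocounts of 1 and 0.1 on TPM, Them6 had 0.19 and 0.21, against -0.17 in the main fit. Dennd3 had 0.048 and 0.081 there, and Gsdmd 0.076 and 0.096. With the replicate block Them6 had 0.042 and Zc3h3 -0.17, where the main fit gave 0.23 for Zc3h3. Without wild-type 2, wild-type 6 and knockout 2 Eef1d had 0.076 and Zc3h3 -0.18. Relative to the median of all genes in the TPM fits, Them6 was at -0.07 and -0.10, Dennd3 at -0.21 and -0.24, and Gsdmd at -0.18 and -0.22. With 1 library left out, Gsdmd ranged from -0.51 to 0.070, Dennd3 from -0.71 to 0.16 and Zc3h3 from -0.057 to 0.50. Genes whose groups did not overlap numbered 2 over total counts, and 1 to 4 with 1 library left out, where 0.998% to 6.79% of all tested genes were separated (3.03% for the count of 4, without wild-type 2). They numbered 4 without both hearts numbered 2 and 5 without wild-type 6 as well, where 4.72% and 15.1% of all tested genes were separated. The medians of the 11 gene lists lay between -0.23 and 0.12 with all libraries. They lay between -0.35 and 0.35 without wild-type 2, and between -0.45 and 0.08 without knockout 2. Without wild-type 6 they lay between -0.10 and 0.05, and without all 3 hearts that stood apart between -0.14 and 0.19. The filter was redone in each such fit, so the tested genes of a list could differ. The causes were not tested.

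Only the numbers 2 and 4 occur in both groups, with correlations of deviations of 0.923 and 0.091, so the numbers were not taken as pairs; in that fit of 4 libraries Top1mt had -0.71 and Gsdmd -0.78 (edgeR unadjusted p = 0.103 and 0.0103). Top1mt and Jrk had only 27 to 127 reads per library. Counting adds to the spread at such low read numbers, and its share was not tested.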
